A study of Mus musculus with 7 samples.

Results

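The cytosolic ribosome translates nearly all nuclear-encoded mRNAs, and each of its proteins comes from its own nuclear gene. The genes described here are those whose array annotation carries a symbol starting with Rpl (large subunit) or Rps (small subunit) and a digit, together with Rplp0, Rplp1, Rplp2 and Rpsa. Kinases of the Rps6k family, pseudogene symbols holding -ps and Rps19bp1 were left out. The genes that met the rule numbered 62 of the 19938 genes with a probe set of a single symbol, 38 named for the large and 24 for the small subunit. Of these, 54 were among the 80 core proteins of the mouse cytosolic ribosome, and the other 8 were paralogs or retrogenes. A further 16 core genes, among them Rpl3, Rpl11, Rps23 and Rps27, were read only by probe sets that list several symbols and are not named with values. Fau, which encodes a ubiquitin-like fusion of Rps30, was measured outside the symbol rule, and 9 core genes were not analysed here.

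RNA came from the extensor digitorum longus, a fast-twitch hindlimb muscle of the mouse, and was hybridised to 1 single-colour array per sample. There were 3 arrays of AMPKα1α2 double knockout muscle (KO), which lacks both catalytic subunits of AMP-activated protein kinase according to the labels, and 4 arrays of wild type muscle (WT). All mice were on a mixed background of C57/Bl6 and SV129. Because the design text counts 3 knockout and 4 wild type mice, 1 array stands for 1 animal. The labels used here do not give the promoter or tissue range of the deletion, or the age, sex or exercise state of the mice.

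AMP-activated protein kinase is switched on when cellular energy is low. It restrains the kinase complex mTORC1, which promotes ribosome production and the translation of mRNAs that begin with a terminal oligopyrimidine tract, a run of C and T bases right at the transcript start. Nearly all cytosolic ribosomal protein mRNAs belong to this class, and their control by mTORC1 acts largely on translation, which an expression array does not read. The comparison therefore addresses transcript amounts of the ribosome in muscle labelled as lacking the kinase.

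The targeted genes had lower means in KO, and neither passed the test. Prkaa1, the α1 subunit, read 9.09, 9.19 and 8.80 in KO, against 9.54, 9.48, 9.61 and 9.53 in WT, without overlap. Prkaa2, the α2 subunit, read 12.04, 11.95 and 12.04 in KO, against 12.31, 12.03, 12.28 and 12.28 in WT, with WT replicate 2 inside the KO range. The adjusted p in limma was 0.12 for Prkaa1 and 0.39 for Prkaa2. The labels do not name the deleted exons, and probes outside them check nothing, so genotypes rest on the labels alone.

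Sequences around the listed starts show how runs of C and T near those starts vary between members, whether or not a run is the tract itself. Those chosen were the 8 genes higher in KO without overlap and the 4 named as lower, of which Rpl29, Rpl36, Rplp1 and Rps20 are named only. Each line runs from 20 bases before the RefSeq start to 20 bases from it onward, in mouse build GRCm38.p6, 5′ to 3′. Capitals mark the longest run of C and T, and where runs tie, as in Rps7, the first of them. Where RefSeq lists several starts, the first is shown, and Rps6 was added as the subunit protein phosphorylated downstream of mTORC1.
Rpl26, chr11:68901546-68901585, plus strand: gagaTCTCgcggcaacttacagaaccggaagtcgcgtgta
Rpl19, chr11:98026690-98026729, plus strand: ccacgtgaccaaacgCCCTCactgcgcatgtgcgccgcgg
Rpl41, chr10:128549149-128549188, minus strand: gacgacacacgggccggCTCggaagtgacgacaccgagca
Rpl10, chrX:74270796-74270835, plus strand: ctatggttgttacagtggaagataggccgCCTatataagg
Rpl10a, chr17:28328451-28328490, plus strand: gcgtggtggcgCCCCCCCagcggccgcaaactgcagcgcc
Rps7, chr12:28635934-28635973, minus strand: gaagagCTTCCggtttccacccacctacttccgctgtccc
Rpl6, chr5:121204481-121204520, plus strand: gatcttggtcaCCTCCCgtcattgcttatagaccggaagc
Rpl3l, chr17:24727806-24727845, plus strand: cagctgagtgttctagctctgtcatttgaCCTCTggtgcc
Rps6, chr4:86857348-86857387, minus strand: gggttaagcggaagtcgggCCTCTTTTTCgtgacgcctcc

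In Rps6 a run of 10 pyrimidines spanned the listed start. None of the other lines holds a run of 8 or more. Over all members, 50 genes had 59 such windows, and 22 of them (37.3%) held a run of at least 8 C or T on the transcript strand, against 12 of 74 windows (16.2%) of mitochondrial ribosomal proteins and 5272 of all 32851 promoter windows in the table. The letters CCGGAAG, the core that ETS-family factors bind, were searched on both strands of the full windows of 300 bases. They stood in 33.9% of the windows of cytosolic and in 33.8% of those of mitochondrial ribosomal proteins, against 8.86% of all windows. A listed start can lie off the start used in muscle, so a missing run says only that these letters are not there.

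Ribosomal protein transcripts differed little between the genotypes. Over the 62 genes the median difference, KO minus WT, was 0.03 on the log2 scale, and single genes lay between -0.15 and 0.16. No gene passed the test: 0 of 62 had an adjusted p under 0.05 in limma with Benjamini-Hochberg adjustment over all probe sets tested, and the smallest adjusted p was 0.296. Over all genes 0.0201% passed as higher and 0.00502% as lower. At an unadjusted p under 0.05 in limma, 8 members were higher and 2 were lower, or 12.9% and 3.23%, where all genes gave 3.93% higher and 6.69% lower. The difference was above 0 for 45 members (72.6%) and for 46.6% of all genes, whose median difference was 0.00 (-0.0049). In bulk muscle, fewer cells of a type and less RNA per cell cannot be told apart.

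The precision of these comparisons, all from the same 3 KO and 4 WT arrays, varied between genes. The standard error of a member's difference had a median of 0.05 and ran from 0.03 in Rpl6 to 0.23 in Rps3a1. The 95% intervals from limma had a median half-width of 0.11. For 47 of the 62 genes (75.8%) the interval lay wholly within 0.25 log2 units of 0, which is a fold of 1.19 in either direction. This bound was chosen after the values were seen, and 70.6% of all genes met it. Of the other 15 members, 10 intervals reached past the bound upward, 3 downward and 2 both ways. For those 15 genes a difference beyond the bound was neither shown nor bounded by these arrays.

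**Figure D1:**
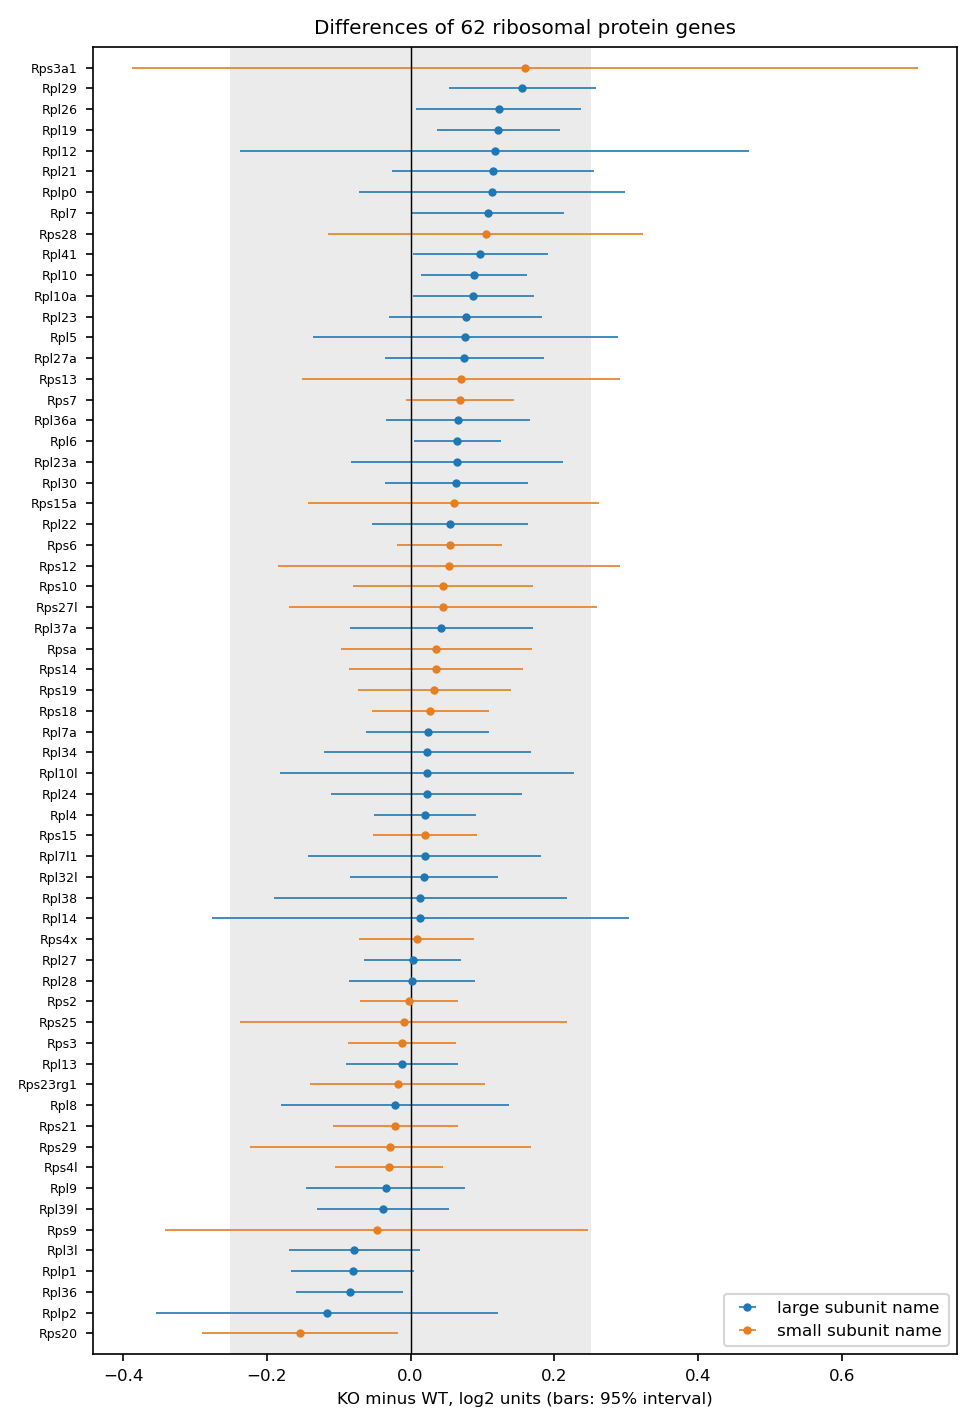
Difference KO minus WT (x axis, log2 units) of each of the 62 ribosomal protein genes (y axis), with the 95% interval from limma over 3 KO and 4 WT arrays; colours give the subunit in the gene's name and grey marks 0.25 on each side of 0. Most points lie within 0.1 of 0, and the widest interval belongs to Rps3a1, from -0.39 to 0.71.

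On the probe set used for each gene, the genotypes did not overlap for 8 members that were higher in KO and 2 that were lower. Higher members made up 12.9% of the 62 and lower ones 3.23%, against 3.29% higher and 5.33% lower among all genes. All but 1 of these 10, Rps7, carry large subunit names: 7 of 38 large subunit genes were higher without overlap, and 1 of 24 small subunit genes. The difference between the subunits was not tested.

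Rpl29, a surface protein of the large subunit, read 11.66, 11.68 and 11.58 in KO, against 11.52, 11.41, 11.53 and 11.47 in WT. Every KO array lay above every WT array, with 0.05 between the nearest values. The means were 11.64 ± 0.05 (SD, n = 3) in KO and 11.48 ± 0.06 (SD, n = 4) in WT, a log2 difference of 0.16 ± 0.04 (SE) or 1.11-fold, with an adjusted p of 0.296 in limma.

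Rpl19, which lies near the exit of the tunnel for the new peptide chain, read 12.62, 12.62 and 12.55 in KO, against 12.53, 12.46, 12.43 and 12.48 in WT. The nearest arrays of the genotypes were 0.02 apart. The log2 difference was 0.12 ± 0.04 (SE), with an adjusted p of 0.328 in limma. Rpl26, also near the tunnel exit and a gene of Diamond-Blackfan anaemia in humans, read 10.92, 10.80 and 10.73 in KO, against 10.72, 10.66, 10.71 and 10.68 in WT. KO replicate 3 stood 0.009 above the highest WT array. Its log2 difference was 0.12 ± 0.05 (SE), with an adjusted p of 0.447 in limma.

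Rpl10, which joins the large subunit late in its assembly and sits beside the tRNA sites, read 12.93, 12.93 and 12.98 in KO, against 12.87, 12.88, 12.82 and 12.87 in WT. KO replicate 3 was the highest of the 7 arrays for this gene, unlike its place for most members. The log2 difference was 0.09 ± 0.03 (SE), with an adjusted p of 0.406 in limma. Rpl10a, a protein of the mobile L1 stalk, averaged 12.69 ± 0.05 (SD, n = 3) in KO and 12.60 ± 0.03 (SD, n = 4) in WT, and its genotypes were separated by 0.002 only. Rpl41, a very short basic protein between the subunits, averaged 12.87 ± 0.01 (SD, n = 3) in KO and 12.77 ± 0.06 (SD, n = 4) in WT. Its lowest KO value and its highest WT value were both 12.86 at 2 decimals.

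Rpl6 had the tightest values of these genes, 11.81, 11.80 and 11.79 in KO against 11.75, 11.74, 11.73 and 11.73 in WT. The spread within each genotype was smaller than the log2 difference of 0.07 ± 0.03 (SE), which is 1.05-fold, with an adjusted p of 0.447 in limma. Rps7, a small subunit protein mutated in some patients with Diamond-Blackfan anaemia, read 11.22, 11.15 and 11.13 in KO, against 11.11, 11.09, 11.11 and 11.09 in WT. Its log2 difference was 0.07 ± 0.03 (SE), with an adjusted p of 0.512 in limma. In its other probe sets, with differences of 0.05 and 0.04, the genotypes overlapped.

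Rpl36, a large subunit protein, lay below WT on every KO array. It read 12.09, 12.04 and 12.03 in KO, against 12.13, 12.18, 12.10 and 12.14 in WT, a log2 difference of -0.08 ± 0.03 (SE) with an adjusted p of 0.422 in limma. All 9 of its probe sets had negative differences, from -0.08 to -0.05. Rplp1, an acidic protein of the stalk that recruits elongation factors, read 12.90, 12.89 and 12.94 in KO, against 12.96, 13.06, 12.96 and 12.97 in WT. Its log2 difference was -0.08 ± 0.04 (SE), with an adjusted p of 0.496 in limma. In its other probe set the difference was -0.02 and the genotypes overlapped. The lowest difference of all members was that of Rps20, a small subunit protein, with 11.98, 11.87 and 11.78 in KO against 12.12, 11.98, 12 and 12.04 in WT. KO replicate 1 met the WT range, and the log2 difference was -0.15 ± 0.06 (SE), with an adjusted p of 0.425 in limma.

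**Figure D2:**
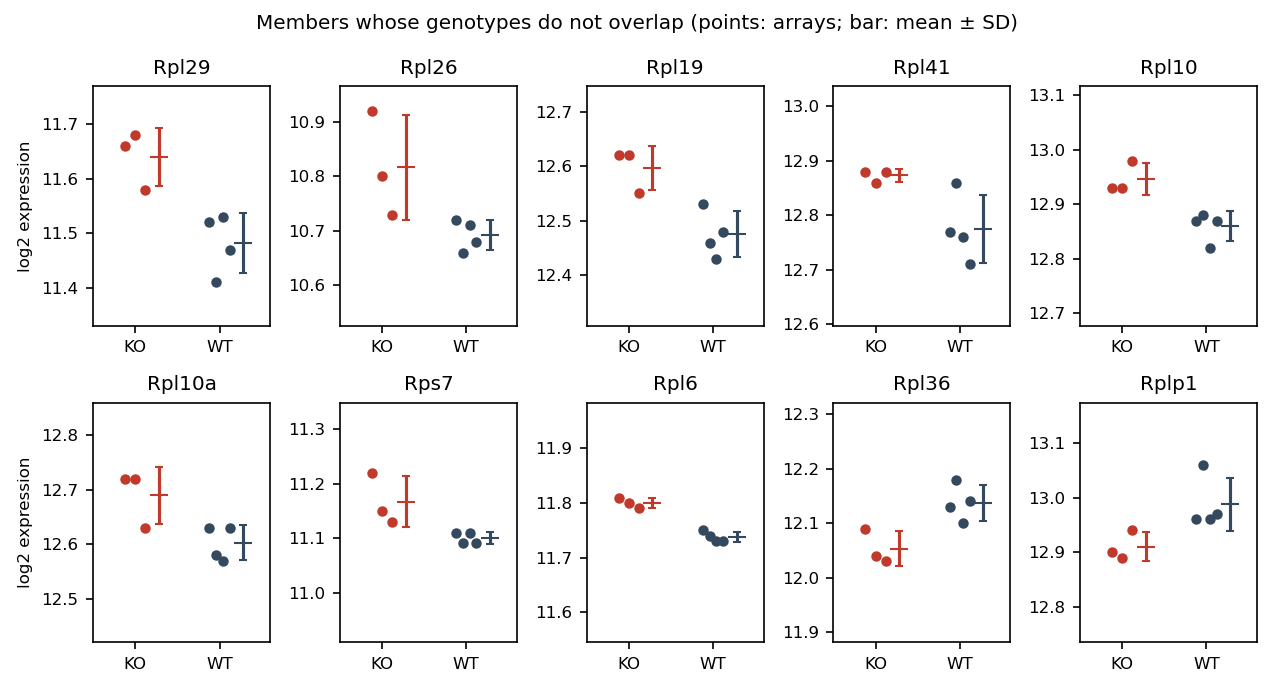
Log2 expression (y axis) of the 10 members whose genotypes did not overlap, with 1 point per array for KO (left) and WT (right) and the mean ± SD beside them; each panel spans the same 0.44 log2 units. Rpl29 to Rpl6 lay higher in KO, and Rpl36 and Rplp1 lower, with gaps of at most 0.05 between the nearest arrays.

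How the members stood depended on which KO array was read. Set against each gene's WT mean, the median deviation over the 62 genes was 0.10 in KO replicate 1, 0.05 in KO replicate 2 and -0.03 in KO replicate 3, and between -0.007 and 0.011 in the 4 WT arrays. KO replicate 1 had 49 of 62 members above their WT mean, KO replicate 2 had 46 and KO replicate 3 had 22. KO replicate 1 was the highest of the 7 arrays for 34 members (54.8%), a place it held for 9.3% of all genes. KO replicate 3 was the lowest for 25 members (40.3%) and for 17.7% of all genes. Among the 1629 other genes with a signal above the lower quartile of the members, those shares were 9.27% for KO replicate 1 as the highest and 36.2% for KO replicate 3 as the lowest.

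The distance between KO replicates 1 and 3 was larger than the difference between genotype means for most members. For 48 of 62 genes KO replicate 1 lay above KO replicate 3, and for 50 the distance between those arrays was larger than the difference between genotypes. Single arrays vary more than means of several, and neither count was taken over all genes, so their usual share is not known here. The range over the KO arrays exceeded that over the WT arrays for 44 members, with medians of 0.149 in KO and 0.091 in WT. That was so for 53.4% of all genes.

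Some genes had KO replicates 1 and 2 above and KO replicate 3 below all WT arrays, and those in this paragraph were picked after their values were seen. Rps13 read 10.48, 10.49 and 10.10 in KO, against 10.29, 10.27, 10.29 and 10.29 in WT. The first 2 KO arrays stood above every WT array and the remaining one below. Rps12 read 10.80, 10.71 and 10.36 in KO, against 10.60, 10.60, 10.60 and 10.49 in WT. Rps15a read 9.38, 9.45 and 9.07 in KO, against 9.25, 9.25, 9.23 and 9.25 in WT. In all of these KO replicate 3 was the lowest of the 7 arrays, and their differences between genotypes were 0.07, 0.05 and 0.06 on the log2 scale in that order.

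**Figure D3:**
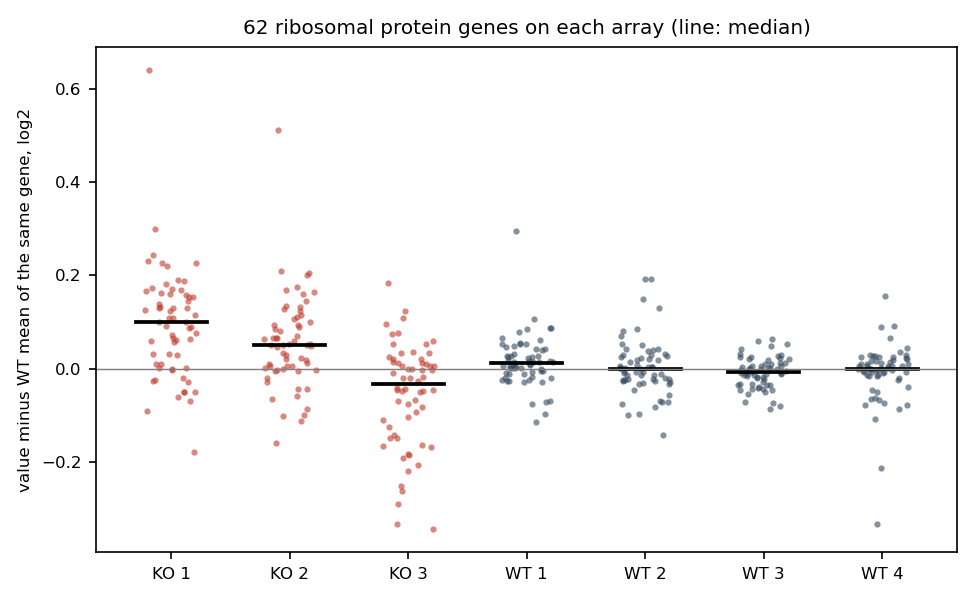
Deviation of each of the 62 ribosomal protein genes from its own WT mean (y axis, log2 units) on each array (x axis, KO left), with a line at the median. The medians are 0.10, 0.05 and -0.03 on the KO arrays and lie within 0.011 of 0 on the WT arrays.

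Leaving out KO replicate 3 raised the median difference to 0.07 and the number of non-overlapping higher members to 30 (48.4%), where all genes then gave 5.68%. The 8 genes named above had to be among the 30, since dropping an array cannot make separated genotypes overlap. At an unadjusted p under 0.05 in limma, 22 members were higher and 1 was lower, where all genes gave 3.56% and 6.51%. By the rule of no overlap 3 members were lower in all, Rpl36 and Rplp1 among them, against 12.2% of all genes. No member passed the adjusted threshold in that fit either, and the smallest adjusted p in limma was 0.144. Leaving out any other single array gave 2 to 5 higher members at an unadjusted p under 0.05 in limma, where all genes gave 2.91% to 4.98%. Without KO replicate 1 the median difference was -0.002, with 8 members higher and 5 lower without overlap, where all genes gave 8.07% and 12.3%. Limma's array weights put KO replicate 3 last, at 0.294, with the other 6 arrays between 0.765 and 1.99. It had the highest array median, 7.584 against 7.501 to 7.545. Centring each array on its median left 3 members higher (4.84%) and 4 lower (6.45%) without overlap, close to the 4.61% and 6.85% of all genes, so the excess of higher members was not seen on that scale. Quantile normalization gave 10 higher (16.1%) and 1 lower (1.61%), against 5.53% and 6.15% of all genes.

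The stalk and the GTPase centre, where elongation factors dock, did not move as a unit. Rplp0, the scaffold of the stalk, read 13.27, 13.29 and 13.13 in KO, against 13.05, 13.31, 13.07 and 13.05 in WT, a log2 difference of 0.11 ± 0.08 (SE). A single WT array, replicate 2, stood at the KO level. Rplp2, the partner of Rplp1, read 8.35, 8.12 and 7.89 in KO, against 8.32, 8.23, 8.23 and 8.17 in WT, and its log2 difference was -0.12 ± 0.10 (SE). Rpl12, at the stalk base, read 7.10, 7.79 and 7.30 in KO, against 7.21, 7.31, 7.31 and 7.31 in WT. Its difference of 0.12 ± 0.15 (SE) rested on KO replicate 2 and was -0.08 without that array. Rpl12 was also among the 3 members of weakest signal, with a mean of 7.33, below the median of 7.72 over all genes. The adjusted p in limma was 0.687 for Rplp0, 0.745 for Rplp2 and 0.833 for Rpl12.

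Rpl5 was the only measured protein of the 5S particle, which binds Mdm2 when ribosome assembly is disturbed. It read 11.85, 11.73 and 11.45 in KO, against 11.63, 11.53, 11.63 and 11.63 in WT. The KO arrays lay on both sides of the WT range, and the log2 difference of 0.08 ± 0.09 (SE) had an adjusted p of 0.817 in limma. It was -0.008 without KO replicate 1. Of 12 listed genes of Diamond-Blackfan anaemia, an inherited failure of red cell production, 6 were measured. Their median difference was 0.06, with 1 gene, Rpl26, higher at an unadjusted p under 0.05 in limma and 0 lower. The 4 measured proteins of the exit tunnel and its rim, Rpl4, Rpl19, Rpl23a and Rpl26, had a median difference of 0.09, and 2 were higher at that unadjusted p in limma and 0 lower. Over all genes 3.93% were higher and 6.69% lower by that p, and these lists are short. The 5 measured proteins of the decoding region and mRNA channel, Rps2, Rps3, Rps14, Rps15 and Rps28, had a median of 0.02, with 0 at that unadjusted p in either direction in limma.

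Members read by probe sets with the strongest signal were Rps6, Rpl21 and Rpl28, but signals of different probe sets also reflect their probes and are not compared between genes. Rps6, the target of S6 kinase, read 13.47, 13.44 and 13.40 in KO, against 13.40, 13.35, 13.38 and 13.40 in WT, a log2 difference of 0.05 ± 0.03 (SE) with an adjusted p of 0.612 in limma. Its 8 probe sets gave differences between 0.05 and 0.07. Rpl21, a large subunit protein, read 13.51, 13.49 and 13.33 in KO, against 13.39, 13.23, 13.33 and 13.37 in WT, with a log2 difference of 0.11 ± 0.06 (SE). Its 9 probe sets differed by 0.09 to 0.16. In most of those not used the genotypes did not overlap, with adjusted p in limma down to 0.227. Rpl28, another large subunit protein, averaged 13.20 ± 0.07 (SD, n = 3) in KO and 13.20 in all 4 WT arrays.

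The widest WT ranges were those of Rps3a1, Rps9 and Rplp0. Rps3a1, a small subunit protein, read 9.94, 9.47 and 8.97 in KO, against 9.38, 9.49, 9.36 and 8.97 in WT. It had the largest positive difference of all members, 0.16 ± 0.23 (SE), but the KO arrays covered and exceeded the WT range, and the difference was -0.08 without KO replicate 1. Rps9, a protein of the small subunit body, read 10.76, 10.78 and 10.60 in KO, against 11.06, 10.62, 10.82 and 10.55 in WT, a log2 difference of -0.05 ± 0.12 (SE). Its second probe set had a difference of 0.03.

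Paralogs replace or accompany core proteins in some tissues, and the 6 measured ones had a median difference of -0.005, with 0 past an unadjusted p of 0.05 in limma. Rpl3l, the form of Rpl3 that is largely confined to skeletal muscle and heart, read 11.78, 11.73 and 11.65 in KO, against 11.78, 11.78, 11.83 and 11.81 in WT. KO replicate 1 met the lowest WT arrays. Its log2 difference was -0.08 ± 0.04 (SE), with a 95% interval from -0.17 to 0.01 and an adjusted p of 0.544 in limma. Rpl3 itself was read only by probe sets that list several symbols.

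Rps27l, a paralog of Rps27 that p53 induces, read 11.73, 11.73 and 11.39 in KO, against 11.62, 11.47, 11.60 and 11.60 in WT. KO replicates 1 and 2 stood above all WT arrays and KO replicate 3 below them, and the log2 difference was 0.04 ± 0.09 (SE) with an adjusted p of 0.904 in limma. Rpl7l1, a relative of Rpl7 with a role in ribosome assembly, averaged 10.35 ± 0.07 (SD, n = 3) in KO and 10.33 ± 0.11 (SD, n = 4) in WT. Rpl10l, a testis form of Rpl10, averaged 8.37 ± 0.14 (SD, n = 3) in KO and 8.35 ± 0.12 (SD, n = 4) in WT. Rps4l averaged 8.36 ± 0.05 (SD, n = 3) in KO and 8.39 ± 0.01 (SD, n = 4) in WT.

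Rpl39l, a testis form of Rpl39, had the weakest probe set signal, at 5.33 ± 0.02 (SD, n = 3) in KO and 5.37 ± 0.06 (SD, n = 4) in WT. Rpl32l averaged 7.20 ± 0.03 (SD, n = 3) in KO and 7.18 ± 0.07 (SD, n = 4) in WT. In all, 4 members lay below the median signal of all genes, 7.72. No filter on weak signal was used, so all 62 entered the counts. Low signals can be compressed towards the array background.

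Many ribosomal protein genes have processed copies elsewhere in the genome, and the array holds several probe sets for most of them. The 62 genes were read by 218 probe sets of a single symbol, and 39 genes had more than 1, up to 14 for Rps12 and 13 for Rpl23a. The probe set with the highest mean stood for the gene. In 30 of the 39 genes all probe sets differed in the same direction. The spread between the probe sets of a gene had a median of 0.04 log2 units and was widest in Rpl7a, from 0.02 to 0.14. Such probe sets may read the same transcripts, so they are not independent measurements. Taking the lowest probe set of each gene gave a median difference of 0.03.

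**Figure D4:**
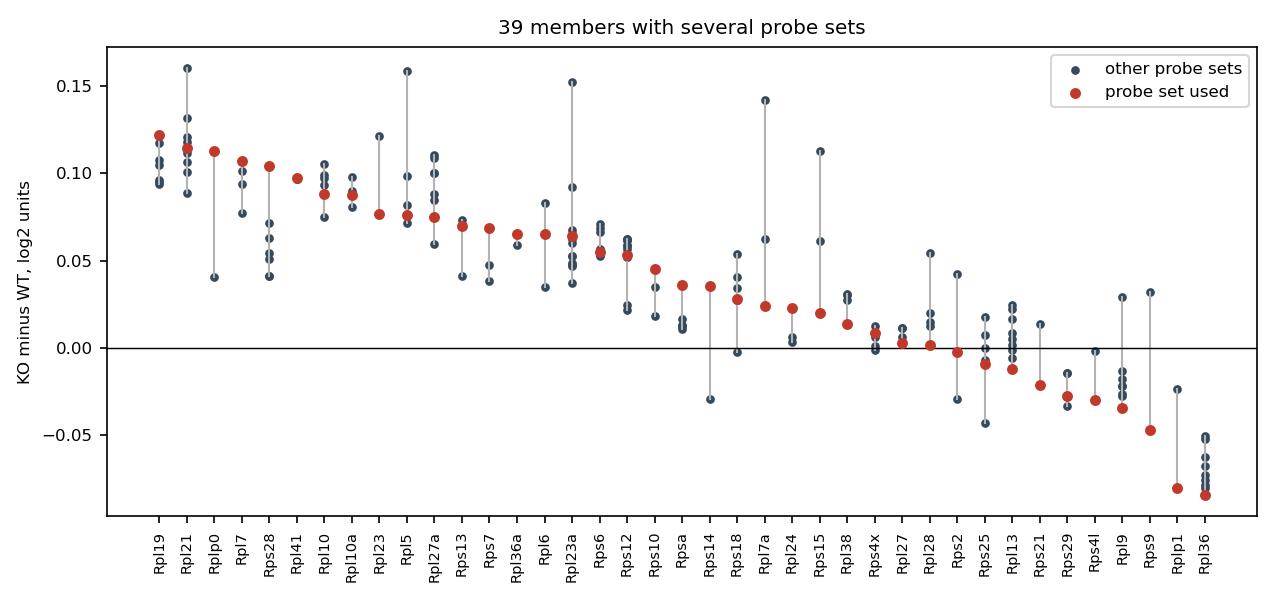
Difference KO minus WT (y axis, log2 units) of every probe set of a single symbol for the 39 members with several (x axis); the probe set used is red and the others are dark. Rpl10, Rpl19 and Rpl21 lie above 0 in all their probe sets and Rpl36 below 0 in all 9.

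A further 239 probe sets list a ribosomal protein symbol beside other symbols. Their median difference was 0.07, with values from -0.32 to 0.34, and 225 of them lay above 0. Many list the same genes, so this count is not one of independent features.

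Mitochondrial ribosomal proteins, which build the separate ribosome inside mitochondria, lay on the other side of 0. Their median difference over 77 genes was -0.10, against 0.03 in the cytosolic set. At an unadjusted p under 0.05 in limma 23 were lower (29.9%) and 0 higher, where the cytosolic set had 2 lower and 8 higher. All genes gave 6.69% lower and 3.93% higher, and the 1629 other genes of strong signal gave 23% lower and 6.02% higher. Those 1629 genes were set by the signal of the cytosolic members. Most mitochondrial ones read below that signal, so 23% is not a background matched to them. With the filter on dim probe sets, all genes kept gave 11.1% lower and 5.23% higher. In both sets 0 genes passed the adjusted threshold. The mitochondrial count was 13 without WT replicate 2 and 15 without WT replicate 3. Mrpl18 read 10.30, 10.16 and 10.14 in KO, against 10.59, 10.49, 10.47 and 10.44 in WT, a log2 difference of -0.30 ± 0.05 (SE) with an adjusted p of 0.123 in limma. Mrpl4, also of the large mitochondrial subunit, differed by -0.16 ± 0.03 (SE). Both sets were lowest in KO replicate 3 among the KO arrays, for 47 of 62 cytosolic (75.8%) and 50 of 77 mitochondrial genes (64.9%). That array had the lowest KO value for 25% of all genes and for 45.7% of the 1629 other genes of strong signal. The difference between these sets was not tested.

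Other genes of translation were described through lists, with 3.93% higher and 6.69% lower among all genes by the unadjusted p as their background. Of 6 measured ribosome-associated proteins outside the symbol rule, none had an unadjusted p under 0.05 in limma. Btf3, a subunit of the complex that meets new chains at the ribosome, differed by 0.07 ± 0.04 (SE), and Fau by 0.04 ± 0.03 (SE). Among 34 initiation factors that unadjusted p in limma was met by 3 in the higher and 2 in the lower direction, with a median of -0.01. Eif5, which prompts GTP hydrolysis by eIF2, read 11.44, 11.31 and 11.29 in KO, against 11.51, 11.65, 11.48 and 11.48 in WT. Eif4e2, a cap-binding protein that can repress translation, differed by -0.10 ± 0.03 (SE). The adjusted p in limma was 0.359 for Eif5 and 0.333 for Eif4e2.

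Elongation and release factors had a median of -0.01 over 14 genes, of which 1 was higher and 0 were lower by the unadjusted p in limma. The higher one was Eef1a1, the elongation factor that delivers tRNAs and that adult muscle fibres largely replace by Eef1a2. It read 12.32, 12.34 and 12.77 in KO, against 12.01, 12.12, 12.18 and 12.07 in WT. All KO arrays lay above all WT arrays and KO replicate 3 was the highest, the reverse of its place for the ribosomal proteins. The log2 difference was 0.38 ± 0.11 (SE) with an adjusted p of 0.323 in limma, while Eef1a2 differed by -0.02 ± 0.03 (SE). Eif5a, which helps the ribosome past difficult peptide bonds, differed by 0.15 ± 0.08 (SE).

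Other transcripts of the oligopyrimidine class had a median of 0.05 over 18 genes, of which 4 were higher and 0 lower by the unadjusted p in limma and 0 passed the adjusted threshold. Besides Eef1a1, Vim, the intermediate filament of connective tissue and immune cells, read 12.45, 12.78 and 12.84 in KO, against 12.41, 12.21, 12.45 and 12.37 in WT. KO replicate 1 stood level with the highest WT array at 2 decimals, and the log2 difference was 0.33 ± 0.10 (SE).

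Genes by which AMP-activated protein kinase and mTORC1 control translation had a median of -0.03 over 30 genes, of which 0 were higher and 5 lower (16.7%) by the unadjusted p in limma and 0 passed the adjusted threshold. The share of lower genes was 6.69% among all genes and 23% among the other genes of strong signal. Most genes of this list read below that signal, so 23% is not a background matched to them. Akt1s1, an inhibitory subunit of mTORC1, read 10.42, 10.49 and 10.51 in KO, against 10.59, 10.59, 10.65 and 10.61 in WT. Its log2 difference was -0.14 ± 0.03 (SE), with an adjusted p of 0.256 in limma. Mlst8, a subunit of both mTOR complexes, read 8.51, 8.43 and 8.57 in KO, against 8.63, 8.77, 8.65 and 8.61 in WT. For both genes every KO array lay below every WT array. The 5 lower genes became 2 or 3 when any of KO replicates 2 and 3 or WT replicates 1, 3 and 4 was left out.

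Genes of ribosome assembly and of RNA polymerase I, which makes ribosomal RNA, had a median of 0.001 over 86 genes, of which 2 were higher and 3 lower by the unadjusted p in limma. Gnl3l, a nucleolar GTPase, differed by 0.17 ± 0.04 (SE) and Mxi1, an antagonist of Myc, by -0.17 ± 0.05 (SE). The adjusted p in limma was 0.257 for Gnl3l and 0.296 for Mxi1. The counts of the small lists moved as well: without KO replicate 3 assembly genes had 7 higher, without KO replicate 1 they had 7 lower, and without KO replicate 2 initiation factors had 0 higher and the oligopyrimidine list 1 higher.

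**Figure D5:**
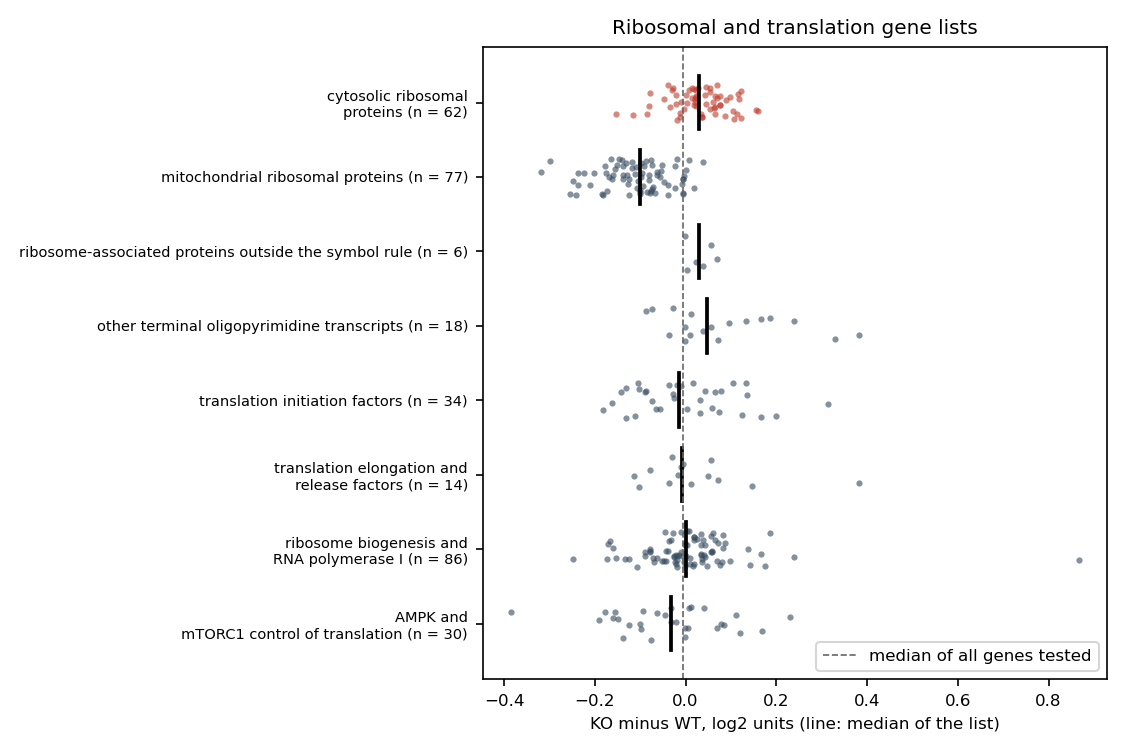
Difference KO minus WT (x axis, log2 units) of every gene in each list (rows, cytosolic ribosomal proteins on top), with a black line at the list's median and a dashed line at the median of all genes. The cytosolic ribosomal proteins sit around 0.03 and the mitochondrial ones around -0.10.

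Facts of the whole data set that touch these values are few. Array medians lay between 7.501 and 7.584. Of the defining muscle genes, Acta1 lay between 14.23 and 14.29 in KO and between 14.19 and 14.27 in WT. Values on this scale have no 0, so no marker was at 0.

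Markers of other cells moved with the genotype in these arrays. The summed level of 15 macrophage markers ran from 13.08 to 13.21 in KO and from 12.37 to 12.54 in WT, with 14 of 15 markers higher. That of 10 endothelial markers ran from 12.68 to 12.80 in KO and from 13.01 to 13.18 in WT, with 0 of 10 higher. Slow fibre markers ran from 12.64 to 13.00 in KO and from 12.05 to 12.46 in WT, fast fibre markers were at 17.33 in all KO arrays and from 17.30 to 17.34 in WT, and cycling cell markers ran from 10.04 to 10.18 in KO and from 9.92 to 10.01 in WT.

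In 1 marker list KO replicates 1 and 3 lay on opposite sides of WT. Its 2 measured red blood cell markers had a summed level of 10.05, 8.65 and 8.96 in KO, against 9.27, 9.73, 9.19 and 9.16 in WT, so that KO replicate 1 stood above and KO replicate 3 below all WT arrays. KO replicate 2 was the lowest there, unlike its place for the ribosomal proteins. The endothelial list, at 12.80, 12.73 and 12.68 in KO replicates 1 to 3, had the array order of the ribosomal protein medians, but all 3 lay below WT. Satellite cell markers ran from 11.57 to 11.72 in KO and from 11.46 to 11.53 in WT. The summed ranges overlapped for fibro-adipogenic markers, at 14.12 to 14.38 in KO and 14.04 to 14.36 in WT. Yet 5 of these 7 markers were higher, 3 of them without overlap, 0 were lower without overlap, and their median difference was 0.414. Summed ranges also overlapped for adipocyte markers, at 9.89 to 10.16 in KO and 10.10 to 10.41 in WT, with 1 of 5 markers higher. The same held for the summed levels of neutrophil, T and B cell and Schwann cell markers. The part of these cells in the result was not tested.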

How the data were processed

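The submitters supplied 1 table with values of 28856 probe sets on 7 arrays; per the labels' protocols, TRIzol was used for extraction and an Ambion kit for labelling. Which software, normalization and genome build the authors used is not given in the sources consulted. The authors' deposited values were taken to be log2 expression because their maximum, 14.65, is above the 11.09 that 16 bits reach as a natural log. The base is thus inferred. Probe sets were named through GEO's platform annotation: 21789 had 1 symbol, 1621 several and 5446 were unnamed here. Limma 3.58.1 (lmFit and eBayes, R 4.3.3) compared 3 KO with 4 WT arrays on all 21789, with Benjamini-Hochberg adjustment over them, and was tested on simulated data. Members, lists and bounds were chosen with earlier results of these data known. Counts per gene use the probe set of highest mean. Named members were those without overlap (up to 8 each way, filled to 4 by smallest p), the 3 strongest, weakest and most variable in WT, paralogs, stalk and 5S proteins, and 2 genes of each other list by smallest p. Lists got no set test. Promoter sequences are RefSeq's (GRCm38.p6). Alternatives were scaling, array weights, prior, filter, probe set choice, replicate block and leaving out each array.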

Additional observations from a re-analysis of the deposited data

Results flagged for a closer look

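Among 27 named members, 8 had a WT array far from the other 3, by the gap to its nearest neighbour over the range of the 4 WT arrays. Chance flags about 1 in 20 such groups. WT replicate 2 was the array in 5 of them. Rplp0 read 13.311 there, against 13.045 to 13.069 in the other WT arrays, and Rplp1 read 13.060, against 12.962 to 12.974. Rps27l read 11.473 there, against 11.598 to 11.615, Rps4l read 8.408, against 8.377 to 8.379, and Rpl5 read 11.531, against 11.626 in each of the others. WT replicate 3 read 12.817 for Rpl10, against 12.869 to 12.878, and 13.196 for Rpl28, against 13.199 in each of the others. WT replicate 1 read 7.206 for Rpl12, against 7.307 in the others at 3 decimals. Exactly equal values on 2 or more WT arrays occurred in 19 of the 62 members (30.6%) and in 36.4% of all genes, and equal values make this measure large for small gaps, as in Rpl28. The WT spread of such genes, and the intervals built on it, rest on fewer distinct values than arrays.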

How the results depend on the processing

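No member passed the adjusted threshold under any alternative run, nor at an adjusted p under 0.10. The median difference was 0.072 over probe sets with several symbols, an alternative added after seeing the data, and lay between -0.002 and 0.0729 with single arrays removed; it stayed within the replicate spread under all other alternatives. At an unadjusted p under 0.05 in limma, the 8 higher members became 3 under median centring and 15 under array weights. They became 4 with the filter on dim probe sets, which kept 58 members, and 1 with the replicate block. All genes gave 3.62%, 5.33%, 5.23% and 3.19% higher in those fits, in that order. Except under array weights, the member counts were then close to or below that share. The 2 lower became 0 after quantile normalization, 1 with the lowest probe set and 1 with the replicate block. All genes gave 6.33%, 6.55% and 5.1% lower there. Removing single arrays gave 2 to 22 higher and 0 to 4 lower, where all genes gave 2.91% to 4.98% and 4.14% to 8.5%. Without overlap, 3 were higher and 4 lower under median centring, where all genes gave 4.61% and 6.85%. After quantile normalization 1 was lower, and 1 with the lowest probe set, where all genes gave 6.15% and 5.22%. Removing single arrays gave 8 to 30 higher and 2 to 5 lower, counts that by construction cannot fall below the 8 and 2 of all arrays. All genes then gave 4.08% to 8.07% higher and 6.33% to 12.3% lower. Same-numbered KO and WT arrays deviated from their group means with r = 0.287, 0.159 and -0.197 across genes, so the numbers were not taken as pairs. Of 27 named members 18 kept their sign throughout. Rpl28 turned to -0.0073 after quantile normalization and -0.0064 under median centring, Rpl32l to -0.0014 and Rpl10l to -0.049 under array weights, and Rps9 to 0.0317 with its lowest probe set. With 1 array left out, differences ran from -0.022 to 0.0402 for Rpl28, -0.0053 to 0.0485 for Rpl32l, -0.0799 to 0.2654 for Rpl12, -0.0818 to 0.4044 for Rps3a1, -0.1179 to 0.0515 for Rps9, -0.0184 to 0.0697 for Rpl7l1, -0.0568 to 0.0782 for Rpl10l, -0.0125 to 0.1584 for Rps27l and -0.008 to 0.1882 for Rpl5. Of 336 values of the other lists under alternatives, 54 moved by more than the replicate spread or 1.5 times. The 23 lower mitochondrial ribosomal proteins became 12 with the replicate block and 13 to 27 with single arrays removed. All genes gave 5.1% lower with the block and 4.14% to 8.5% with single arrays removed. The cause of these shifts was not tested.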
